A study of Homo sapiens with 15 samples.

Results

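The 4 ID genes (ID1, ID2, ID3, ID4) and 4 feedback inhibitors of SMAD signalling (SMAD6, SMAD7, SKIL, BAMBI) were followed in Mia PACA-2, a cell line from a human pancreatic cancer. These 8 members were taken by name from the 16887 genes in the deposited tables. The members were chosen by the lower ID2 values with CDA_E67Q in these data, so the CDA_E67Q values of the members are given as a description, without a test. Messenger RNA was sequenced from 15 libraries in 3 groups of 5. The first was the control, the second overexpressed cytidine deaminase (CDA), and the third overexpressed CDA_E67Q, in which a glutamate is exchanged for glutamine. CDA turns cytidine and deoxycytidine into their uridine forms, and the changed glutamate is part of its catalytic site. All 3 groups were cells of the one line, and treatment was given as none. The labels number the libraries of each group as pools 1 to 5 and do not say what a pool is, which vector was used, or what the control cells carry. The p-values therefore reflect only how these libraries spread, and that spread may be technical.

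ID proteins are helix-loop-helix proteins without a DNA-binding region. They pair with E proteins such as TCF3 and TCF12 and keep these from binding E-box sites with tissue-specific partners, and they are known for holding cells in a proliferating, undifferentiated state. Bone morphogenetic proteins (BMPs) act through receptors and SMAD1, SMAD5 and SMAD9 on ID1, ID2 and ID3, which are among their most direct target genes. TGF-beta and activin act through SMAD2 and SMAD3. Both branches switch on their own brakes: SMAD6 mainly blocks the BMP branch, SMAD7 blocks both at the receptors, SKIL (SnoN) is a nuclear co-repressor of SMAD2, SMAD3 and SMAD4, and BAMBI is a membrane pseudoreceptor without a kinase.

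The promoters of 4 members are shown because ID2 gave the choice of genes, ID1 and ID3 followed each other most closely over the libraries, and BAMBI held the most SMAD motif matches. Each sequence is the 250 bases before the RefSeq transcription start on GRCh38.p14, read 5′ to 3′ on the gene's strand. Capitals mark matches, on either strand, to the BMP-responsive GC box GGCGCC and to the SMAD box CAGAC, which is GTCTG on the other strand. The windows are chr20:31605039-31605288 on the plus strand for ID1, chr2:8681806-8682055 on the plus strand for ID2, chr1:23559502-23559751 on the minus strand for ID3, and chr10:28677271-28677520 on the plus strand for BAMBI.
ID1: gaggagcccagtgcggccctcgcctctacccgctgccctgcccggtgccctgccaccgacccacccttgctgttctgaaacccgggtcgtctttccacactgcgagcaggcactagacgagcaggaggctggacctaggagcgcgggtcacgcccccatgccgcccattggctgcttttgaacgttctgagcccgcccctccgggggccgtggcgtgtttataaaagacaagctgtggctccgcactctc
ID2: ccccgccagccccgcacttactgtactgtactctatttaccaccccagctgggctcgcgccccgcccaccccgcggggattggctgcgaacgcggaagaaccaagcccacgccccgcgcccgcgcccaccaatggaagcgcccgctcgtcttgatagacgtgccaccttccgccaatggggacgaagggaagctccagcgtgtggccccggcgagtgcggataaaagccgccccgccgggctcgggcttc
ID3: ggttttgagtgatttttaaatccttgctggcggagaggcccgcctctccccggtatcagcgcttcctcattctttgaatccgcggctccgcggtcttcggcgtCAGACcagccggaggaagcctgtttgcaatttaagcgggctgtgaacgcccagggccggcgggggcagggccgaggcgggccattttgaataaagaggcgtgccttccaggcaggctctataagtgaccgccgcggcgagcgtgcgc
BAMBI: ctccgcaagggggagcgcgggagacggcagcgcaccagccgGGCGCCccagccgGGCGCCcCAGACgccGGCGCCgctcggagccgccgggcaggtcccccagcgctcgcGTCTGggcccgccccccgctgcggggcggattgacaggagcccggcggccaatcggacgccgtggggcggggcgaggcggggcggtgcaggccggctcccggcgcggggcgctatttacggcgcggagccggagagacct
The BAMBI window held 3 GC boxes, which began 209, 196 and 181 bases before the start, and 2 SMAD boxes, at 189 and 140 bases. ID3 held 1 SMAD box, at 147 bases, and the ID1 and ID2 windows held neither motif. Among the members not printed, SKIL held 1 GC box at 190 bases and 1 SMAD box at 107 bases, ID4 held 1 SMAD box, and SMAD6 held none. SMAD7 has 3 RefSeq starts, with 2, 1 and 0 SMAD boxes before them. Of all 35116 promoter windows of this length, 16.4% held the GC box and 38.0% held the SMAD box. These shares are not matched for base composition, and the GC box consists only of G and C. The median window was 58% G and C, against 81.2% for BAMBI and 78.4% for SKIL. ID4, at 78.8%, held no GC box. The E-box CANNTG, the site that E proteins bind, was in 61.8% of windows. It matched once in ID2, at 205 bases, once in ID4, at 21 bases, and before 2 of the SMAD7 starts. All 8 members matched the RefSeq table. A match is a description of the letters only.

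Levels below are normalised counts, recovered from the deposited log2 values and put on 1 scale for the 15 libraries, and differences are of log2(normalised count + 1). Between 12508 and 13090 genes were detected per library, and the estimated depth was 21.3 to 31.0 M reads, without a counting interval. Transcripts of CDA were at 9.91 to 312 in the control libraries, 775 to 5222 in CDA and 1357 to 5475 in CDA_E67Q, with no overlap between control and either overexpressing group. Across all genes, libraries deviated from their group means together with the same-numbered libraries of the other groups, except for 1 control library. Control pool 1 correlated with CDA pool 1 at r = 0.01 and with CDA_E67Q pool 1 at -0.06, and best with pool 4 of each, at 0.53 and 0.42. Control pool 4 correlated with CDA pool 1 at 0.47 and with CDA pool 4 at 0.34. The differences between group means below do not use the numbers. Counts of pools, the test between pool numbers and differences from the control of the same number do. So do shares of variance and correlations with pool means taken off. Of the cell markers, KRT8 (23943 ± 9497 in the control, SD, n = 5), KRT18 (18871 ± 5662) and vimentin (180291 ± 60147) were high, while the epithelial adhesion genes EPCAM and CDH1 stayed at or below 3.59. The other epithelial markers in the control were KRT19 (4706 ± 2055), CLDN4 (2453 ± 2135), MUC1 (260 ± 258) and KRT7 (2.36 ± 2.43). The other mesenchymal markers went both ways. In the control ZEB1 was at 1172 ± 558 and FN1 at 12.4 ± 9.99, and CDH2 was listed at 0. PRSS1, PNLIP, INS and GCG, markers of acinar and endocrine cells, were listed at 0 in every library. SYP, a neuroendocrine marker of the same list, was at 60.5 to 357 over the libraries.

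Per kilobase of the longest coding transcript, the control levels of the members spanned a wide range. ID3 (9634 ± 3567 per kb, SD, n = 5) and ID1 (9484 ± 3586 per kb) were the highest and did not differ beyond their spread. ID2 followed at 1887 ± 883 per kb. The feedback genes were lower, with BAMBI at 86.7 ± 125 per kb, SKIL at 48.9 ± 25.2, SMAD6 at 46.5 ± 38.7 and SMAD7 at 21.0 ± 13.3. The spread of each of these 4 reached over its neighbours in the order. ID4, the fourth ID gene, was listed at 0 in 14 of 15 libraries and at 0.833 in CDA pool 2, and was not tested. The other 7 members passed the filter on low values, which kept genes that reached 10 in 5 or more libraries.

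ID2 (chr2:8678845-8684453, plus strand, GENCODE on GRCh38) was at 3749, 6739, 2944, 1899 and 3925 in control pools 1 to 5. It was at 1982, 1313, 1434, 1456 and 3413 in CDA_E67Q pools 1 to 5. Each CDA_E67Q library was below the control of its number, by 1.14-fold in pool 5 to 5.14-fold in pool 2. This count rests on the numbers as labelled: control pool 1 resembled pool 4 of the other groups across all genes, and CDA_E67Q pool 1, at 1982, was above control pool 4, at 1899. The groups nevertheless overlapped, because 2 CDA_E67Q libraries, pools 1 and 5, were above control pool 4. The log2 difference was -0.98 (SE 0.340), a 1.97-fold lower mean, and this is the value that chose the members. In RNA from whole cultures, fewer cells with ID2 transcripts and fewer transcripts per cell cannot be told apart. Without control pool 2 the difference was -0.75, and without pool 5 of CDA_E67Q it was -1.21.

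With unchanged CDA, ID2 was at 2519, 2542, 931, 1815 and 4070.3 in pools 1 to 5. It was lower than the control of the same number in 4 of 5 pools, by 1.05-fold to 3.16-fold, and 1.04-fold higher in pool 5. The log2 difference from control was -0.73 (SE 0.397, 95% interval -1.60 to 0.14), with an adjusted p of 1.00 by limma and an exact permutation p of 0.143 (2-sided, n = 5 per group). With pool number as a block in the fit, the SE was 0.259 and the interval -1.33 to -0.13. That interval rests on the numbers as labelled and is not adjusted for the genes tested, and ID2 was not called. This comparison uses the same 5 control libraries as the one that chose ID2, so it is not separate evidence of a direction. Without CDA pool 3 the difference was -0.43. Over the 11341 genes tested for CDA against control, 0% were called at an adjusted p under 0.05, with 0 of the 7 members. At an unadjusted p under 0.05, 0.282% of genes (32) and 0 members were called. The CDA transcript itself, 4.71 higher on the log2 scale (SE 0.917), had an adjusted p of 1.00 in this limma fit and, by an exact permutation test, p = 0.00794, the smallest value that 5 against 5 libraries can give. Between the 2 forms of the enzyme, ID2 was lower with CDA_E67Q than with CDA in 4 of 5 pools and higher in pool 3, with a mean log2 difference of -0.25 (SD 0.563, range -0.95 to 0.62). The span of the antisense gene ID2-AS1 overlaps that of ID2, and whether their exons overlap was not checked. The sources used here do not say whether reads were assigned by strand. A part of ID2-AS1 reads in the ID2 values was not tested.

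**Figure D1:**
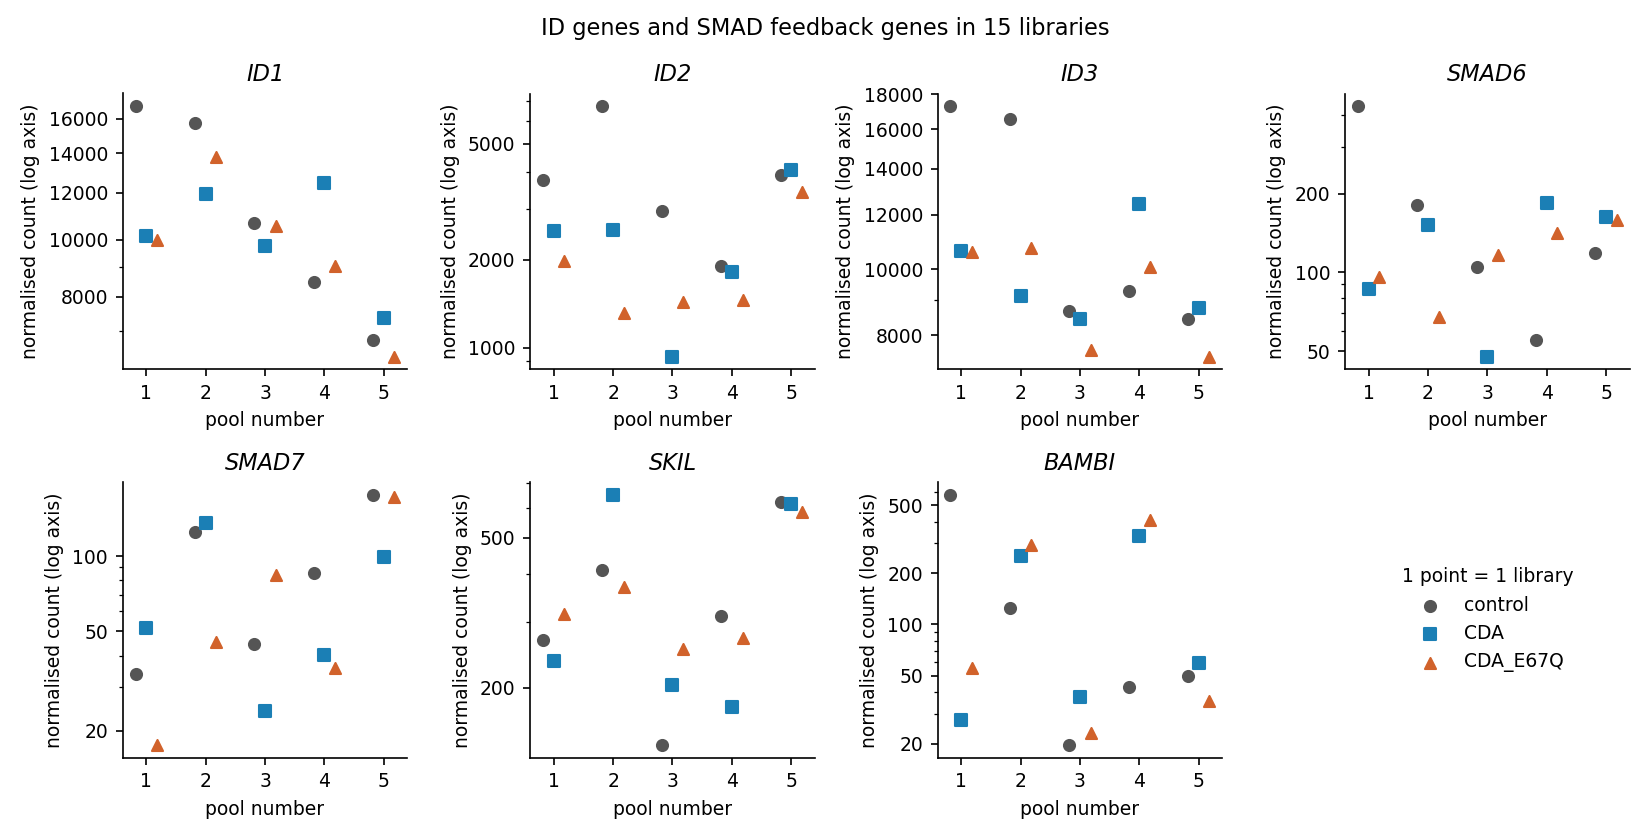
Normalised counts (log axes) of the 7 detected members by pool number, with 1 point per library: circles for control, squares for CDA, triangles for CDA_E67Q. ID2 lay lower in each CDA_E67Q library than in the control of the same labelled number, and BAMBI in control pool 1 stood at 577, above the other 14 libraries.

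ID1 and ID3, the other detected ID genes, had smaller differences than ID2 in each comparison, none of them called with CDA. ID1 (chr20:31605283-31606515, plus strand, a single-exon longest transcript) was at 16824, 15726, 10672, 8474 and 6775 in control pools 1 to 5. It was at 10160.0, 11959.7, 9749.6, 12469 and 7357 in CDA, and at 9972, 13808, 10546, 9039 and 6338 in CDA_E67Q. The pool 5 libraries were the lowest in all 3 groups, and the control group held both the highest and nearly the lowest values. The log2 difference from control was -0.12 with CDA (SE 0.261, 95% interval -0.69 to 0.46, exact permutation p = 0.683) and -0.19 with CDA_E67Q (SE 0.283). Leaving out control pool 1 turned the CDA difference to 0.037, and the CDA_E67Q difference was then -0.04.

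ID3 (chr1:23557918-23559794, minus strand) was at 17294, 16546, 8683, 9299 and 8440.2 in control pools 1 to 5. In CDA it was at 10620.3, 9132, 8447, 12436 and 8762, and in CDA_E67Q at 10587, 10737, 7604, 10062 and 7445. Control pools 1 and 2 were above the other 13 libraries, and the remaining control libraries, at 8440.2 to 9299, lay among those of the other groups. The log2 difference was -0.23 with CDA (SE 0.237, 95% interval -0.74 to 0.29, exact permutation p = 0.365) and -0.32 with CDA_E67Q (SE 0.246). Without control pool 1 the 2 differences were -0.08 and -0.17.

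The inhibitory SMADs varied several-fold between libraries of the same group. SMAD6 (chr15:66702228-66782848, plus strand) was at 431, 181, 105, 55.3 and 119 in control pools 1 to 5. It was at 86.3, 152, 47.7, 184 and 162 in CDA and at 96.4, 67.7, 116, 141 and 158 in CDA_E67Q. Control held both the highest library, pool 1, and nearly the lowest, pool 4. The log2 difference was -0.30 with CDA (SE 0.540, 95% interval -1.49 to 0.88, exact permutation p = 0.651) and -0.33 with CDA_E67Q (SE 0.481). Without control pool 1 the values were 0.099 and 0.069, and without CDA pool 3 the CDA value was 0.0037. SMAD7 (chr18:48919853-48952052, minus strand) was at 33.9, 125, 44.5, 85.3 and 176 in control, 51.8, 135, 23.9, 40.2 and 99.0 in CDA, and 17.5, 45.4, 84.0, 35.5 and 173 in CDA_E67Q. Pool 5 was the highest library of control and of CDA_E67Q, and pool 2 of CDA. Its log2 difference was -0.41 with CDA (SE 0.569, 95% interval -1.66 to 0.84, exact permutation p = 0.524) and -0.54 with CDA_E67Q (SE 0.631), with 3 of 5 and 4 of 5 pools lower. Without 1 library at a time the CDA value ranged from -0.71 (without CDA pool 2) to -0.097 (without CDA pool 3), and it was -0.12 without control pool 5. The CDA_E67Q value ranged from -0.96 (without CDA_E67Q pool 5) to -0.16 (without CDA_E67Q pool 1).

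SKIL (chr3:170357678-170396835, plus strand), the nuclear co-repressor, was at 268, 412, 141, 309.7 and 624 in control pools 1 to 5. It was at 236, 652, 203, 178 and 617 in CDA and at 313, 371, 253, 272 and 586 in CDA_E67Q. The 3 groups spanned nearly the same range, and pools 2 and 5 were the highest libraries of each group. The log2 difference was 0.04 with CDA (SE 0.471, 95% interval -0.99 to 1.07, exact permutation p = 0.944) and 0.13 with CDA_E67Q (SE 0.375). Leaving out 1 library at a time moved the CDA value between -0.25 and 0.29. The CDA_E67Q value was -0.16 without control pool 3, -0.07 without CDA_E67Q pool 5 and 0.37 without control pool 5.

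BAMBI (chr10:28677342-28682939, plus strand), the pseudoreceptor, was at 577, 124, 19.6, 43.2 and 49.9 in control pools 1 to 5. It was at 27.4, 250.2, 37.7, 331 and 59.4 in CDA and at 55.6, 293, 23.0, 409.7 and 35.3 in CDA_E67Q. High values stood in pools 2 and 4 of both overexpressing groups but in pools 1 and 2 of the control, and the highest library was 29.5 times the lowest. Its log2 difference was 0.14 with CDA (SE 0.937, 95% interval -1.91 to 2.20, exact permutation p = 0.889) and 0.17 with CDA_E67Q (SE 0.977). Without control pool 1 these values were 0.86 and 0.88, and the CDA_E67Q value was -0.38 without CDA_E67Q pool 4.

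Across the 7 detected members, 5 were lower with CDA and 5 with CDA_E67Q, with a median log2 difference of -0.23 and -0.32. Over all genes tested the medians were 0.011 and 0.0071. The 2 comparisons share their control libraries, so the members' values in one are not independent of those in the other. For CDA_E67Q against control, 0% of 11341 genes were called at an adjusted p under 0.05 by limma, and 54 had an unadjusted p under 0.05.

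**Figure D2:**
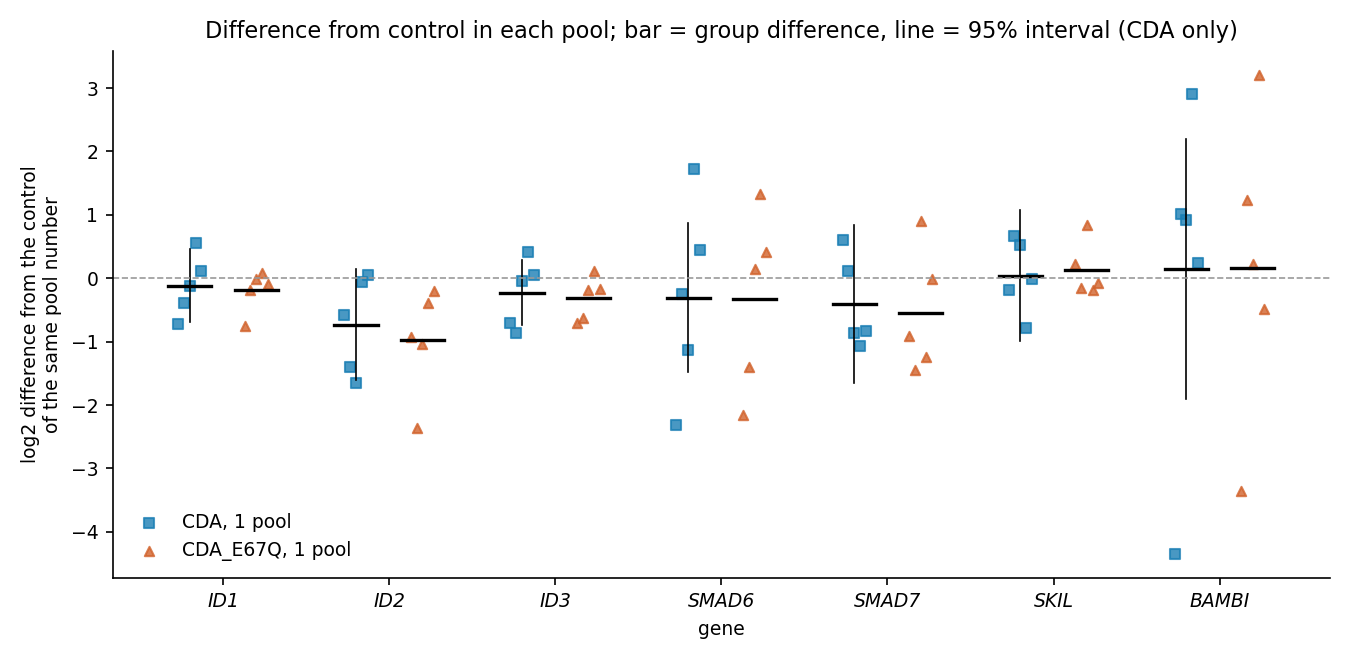
Log2 difference of each library from the control of the same labelled number for the 7 members, with squares for CDA and triangles for CDA_E67Q. Horizontal bars are the differences between group means, and vertical lines are the 95% intervals of the CDA differences. All 5 CDA_E67Q points of ID2 lay below 0, from -0.19 to -2.36, and the BAMBI points spread from -4.35 to 3.21.

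Pool number, with 5 levels, went with more of the variance than group, with 3, for each of the 7 detected members. It accounted for 82.7% of the variance of SKIL, 72.6% of ID1, 61.8% of SMAD7, 52.6% of ID3, 51.3% of BAMBI, 41.2% of ID2 and 16.5% of SMAD6, against a median of 61.0% over all genes tested. Group accounted for 32.0% of the variance of ID2 and 14.6% of ID3. For the other 5 members it accounted for 0.217% to 5.53%, beside a median of 4.35% over all genes. The ID2 share includes the CDA_E67Q libraries that chose it. SMAD6 and BAMBI had the most variance outside both, at 79.6% and 48.5%. In both genes the differences from the control of the same number were lowest in pool 1 and highest in pool 4. For SMAD6 these were -2.31 and 1.72 with CDA, and -2.15 and 1.33 with CDA_E67Q. For BAMBI they were -4.35 and 2.91, and -3.35 and 3.21. Across all genes control pool 1 resembled pool 4 of the other groups. The part of the numbering in these shares was not tested.

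By limma's F test over the 15 libraries with group in the fit, 4 of the 7 members differed between pool numbers. The adjusted p was 0.00292 for SKIL, 0.0119 for ID1, 0.0369 for SMAD7 and 0.0444 for ID2. ID3 (adjusted p = 0.0639), BAMBI (0.0946) and SMAD6 (0.718) did not pass. In the same test 45% of 11588 genes were called, so the members' share was near that of all genes. Without the pool 5 libraries 0 of the 7 members passed, with adjusted p-values of 0.185 to 0.786 by limma, and 1.61% of genes were called. Single libraries also decided calls. BAMBI passed without control pool 1 (adjusted p = 0.00279 by limma), control pool 4 (0.0212) or CDA pool 1 (0.0395), and ID3 passed without control pool 4 (0.0269) or CDA pool 2 (0.0229). ID1 did not pass without pool 5 of the control (0.0680) or of CDA_E67Q (0.0554). Leaving out 1 library at a time gave ID2 values of 0.0103 to 0.135 and SMAD7 values of 0.0101 to 0.134, on both sides of the threshold. SKIL remained past the threshold without any single library, at 0.00187 to 0.0174.

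**Figure D3:**
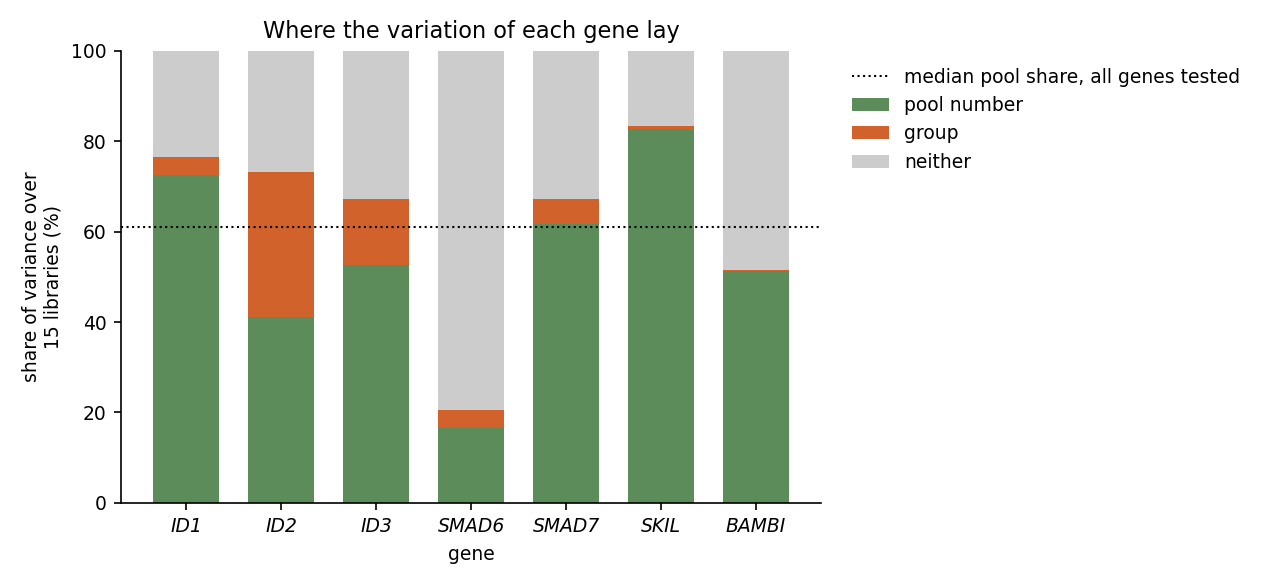
Share of the variance of log2(normalised count + 1) over 15 libraries that went with pool number, with group and with neither, for each detected member as stacked bars that start at 0. The dotted line is the median pool share of all genes tested, 61.0%. SKIL and ID1 lay well above it, and SMAD6 lay lowest, at 16.5%.

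The 3 pool 5 libraries were compared with the other 12. ID1 was at 6338 to 7357 in pool 5 and at 8474 to 16824 elsewhere, without overlap, a log2 difference of -0.74. It was the only member to stand apart in this way, while 34.2% of all genes did. SMAD7 (149 ± 43.6 in pool 5, SD, n = 3, against 60.2 ± 38.6 in the others, n = 12) and SKIL (609 ± 20.2 against 301 ± 134) averaged 1.50 and 1.13 higher on the log2 scale but overlapped. ID2 averaged 0.84 higher on the same scale and BAMBI differed by -1.05, both with overlap, beside a median of 0.018 over all genes. Markers of other cell types differed in pool 5 as well, in both directions. Of 2 immune markers tested, CD68 averaged 1610 in pool 5 and 536 in the others. LYZ averaged 10.3 and 309, and ranged from 3.92 to 1200 over the libraries. The summed level of 4 endothelial markers was 582 to 620.0 in pool 5 and 1.01 to 27.2 in the other libraries. Nearly all of this came from the cadherin CDH5, which averaged 590.3 in pool 5 and was listed at 0 in the other 12 libraries. The receptor KDR, which marks the same cell type, was listed at 0 in every library. The sum of 4 fibroblast markers was 119 to 196 in pool 5 and 11.3 to 101 elsewhere, with DCN and LUM listed at 0 in all. Of 6 epithelial markers tested, 5 differed between pool numbers, beside 45% of all genes, and these 5 moved in both directions. The mucin MUC1 averaged 891 in pool 5 and 141 in the others, CLDN4 5721 and 1389.7 and KRT19 7792 and 3624. KRT8 averaged 11779.8 in pool 5 and 27742 in the others, and KRT18 13409 and 20507. KRT7, which did not pass, averaged 0.817 and 11.7. The part of these differences in the members' values was not tested.

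Over the 15 libraries the closest pair was ID1 and ID3, with a Pearson r of 0.79 and a Spearman rho of 0.72 on log2 values. With the mean of each pool number taken off, r was 0.88. It was 0.78 over the 12 libraries without pool 5, and 0.67 without the 2 libraries farthest from the ID1 median. ID2 had r = 0.02 against ID1 and 0.36 against ID3 over all libraries. Without pool 5 these were 0.59 and 0.69 (12 libraries), and with pool means taken off 0.45 and 0.62. Without the 2 libraries farthest from the median of ID1 or ID2, respectively, both were -0.01. SMAD7 and SKIL, which both rise under TGF-beta in many cells, had r = 0.71 (rho 0.69), and 0.31 with pool means taken off. ID1 and SMAD6 went the other way, from 0.32 to 0.77. These 15 points share pool numbers and control libraries, and 21 pairs were computed, so the values are a description.

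**Figure D4:**
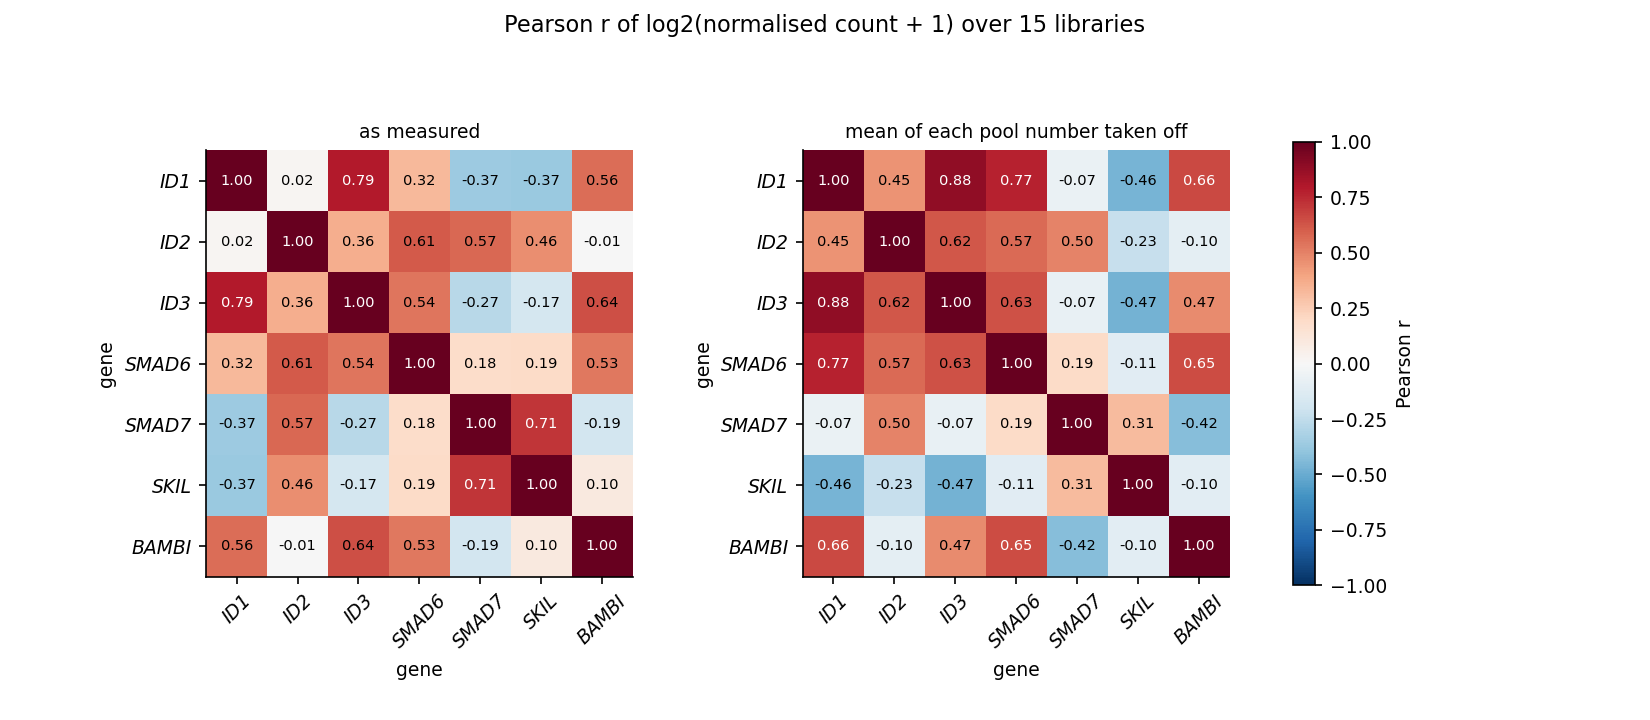
Pearson r of log2(normalised count + 1) for each pair of the 7 detected members over 15 libraries, as measured on the left and with the mean of each pool number taken off on the right. Red is positive and blue is negative. The ID1 and ID3 pair was high in both panels (0.79 and 0.88), while the SMAD7 and SKIL pair fell from 0.71 to 0.31.

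The genes whose levels were most alike over the 15 libraries were listed for each member by Pearson r among all genes tested. For ID2 they were DAZAP2 (r = 0.88), the receptor tyrosine kinase inhibitor SPRY2 (0.86) and ZNF490 (0.85), and with pool means taken off PDE4D (0.92), TSC22D1 (0.92) and NBEA (0.90). The phosphodiesterase PDE4D was at 273 ± 123 in control, 173 ± 85.7 in CDA and 137 ± 70.9 in CDA_E67Q (SD, n = 5). PDE4D was picked from all genes tested by its likeness to ID2 in these same libraries. This order of its groups can follow from that choice and is not separate evidence. For ID1 the most alike genes were ACP1 (0.93), BLOC1S1 (0.92) and FGGY (0.91), and for ID3 FBXL12 (0.84), NUDT9 (0.84) and UNC50 (0.82). For SMAD6 they were NEO1 (0.91), which binds the RGM co-receptors of BMPs, APOBEC3F (0.85) and PPT1 (0.84). For SMAD7 they were PDK4 (0.90), SEMA3G (0.86) and AEBP2 (0.84). SKIL was most like BOK (0.90), LTBP3 (0.89), which binds latent TGF-beta, and BCL6 (0.87), and BAMBI was most like CD2BP2 (0.90), KRT222 (0.89) and HNRNPA0 (0.87).

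Around the members, 9 lists of pathway genes were read, from ligands to targets. Of 109 listed genes 105 were in the tables and 62 could be tested. By limma none of the 62 was called for CDA against control, 0 had an unadjusted p under 0.05, and 27 were lower. None was called with CDA_E67Q. Between pool numbers 32 of the 62 were called, beside 45% of all genes.

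Among the ligands, the BMP list had 3 of 5 tested genes higher with CDA and 4 of 5 with CDA_E67Q. BMP7 was at 1046 ± 201 in control, 1132 ± 196 in CDA and 1149 ± 217 in CDA_E67Q (SD, n = 5). BMP6 was at 83.9 ± 51.3, 208 ± 154 and 162 ± 107, a log2 difference of 0.99 (SE 0.664) and 0.85 (SE 0.528). BMP4, a ligand often used to induce ID genes, was listed at 0 in every library. Of 8 TGF-beta and activin ligands, 5 were higher with CDA and 8 with CDA_E67Q, with medians of 0.24 and 0.22. TGFB1 was at 1496 ± 815, 1926 ± 749 and 1712 ± 916. TGFB2 averaged 11.7 ± 11.6 in control, 404 ± 865 in CDA and 118 ± 234 in CDA_E67Q, and the SD exceeded the mean in both overexpressing groups. Its log2 differences were 2.58 (SE 1.39) with CDA and 1.90 (SE 1.23) with CDA_E67Q, and neither was called. INHBB, an activin subunit, was at 51.5 ± 40.9, 80.2 ± 72.7 and 48.3 ± 28.7. Between pool numbers 7 of these 8 ligands were called, beside 45% of all genes.

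Of 10 receptors and co-receptors, 7 were higher with CDA and 5 with CDA_E67Q. The type I BMP receptor BMPR1A was at 1820 ± 489 in control, 1516 ± 502 in CDA and 1382 ± 630 in CDA_E67Q (SD, n = 5), log2 differences of -0.28 (SE 0.234) and -0.52 (SE 0.359). The type II activin receptor ACVR2B was at 218 ± 85.8, 298 ± 144 and 267 ± 162. Endoglin (ENG), a co-receptor, was at 2612 ± 638, 2804 ± 665 and 2891 ± 518. Of the receptor-regulated SMADs and SMAD4, 2 of 6 were higher with CDA and 1 of 6 with CDA_E67Q. Between pool numbers 1 of 6 was called, beside 45% of all genes. SMAD9 was at 247 ± 37.9, 220.2 ± 59.0 and 172 ± 72.6, a log2 difference of -0.61 (SE 0.296) with CDA_E67Q that was not called. SMAD3 was at 1671 ± 483, 2146 ± 285 and 1898 ± 730. SMAD2, the highest of the list, was at 2058 ± 15.2, 2110.2 ± 104 and 1947 ± 342.

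Co-repressors and ubiquitin ligases, the partners of SKIL and SMAD7, were higher with CDA in 4 of 10 genes and with CDA_E67Q in 4 of 10. The ligase NEDD4L was at 1429 ± 1244 in control, 3247 ± 3134 in CDA and 3504 ± 3625 in CDA_E67Q (SD, n = 5), and it differed between pool numbers (adjusted p = 7.43e-05 by limma). STRAP, a SMAD7-binding protein and the highest of the list, was at 7897 ± 951, 8584 ± 1294 and 9461 ± 2629. The co-repressor TGIF2 was at 1067 ± 164, 928 ± 231 and 1064 ± 241, and it also differed between pool numbers (adjusted p = 0.00241 by limma). Of 6 extracellular antagonists, 5 were higher with CDA and 3 with CDA_E67Q, with NBL1 at 2587 ± 433, 2825 ± 310 and 3059 ± 903. FSTL1 was at 486 ± 416, 657 ± 359 and 349 ± 203. GREM1, which traps BMPs, was listed at 0 in every library. Among other BMP targets, 2 of 6 were higher with CDA and 3 of 6 with CDA_E67Q. HEY1 was at 49.2 ± 38.8, 28.5 ± 23.8 and 18.9 ± 13.0, with log2 differences of -0.77 (SE 0.685) and -1.19 (SE 0.639). MSX2 was at 112 ± 116, 119 ± 78.5 and 87.1 ± 87.0, with log2 differences of 1.03 (SE 1.15) and 0.10 (SE 1.25). HES1 was at 2827 ± 2313, 2473 ± 1776 and 2417 ± 1891 and differed between pool numbers (adjusted p = 3.95e-07 by limma).

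Of 9 other TGF-beta targets, 6 were higher with CDA and 6 with CDA_E67Q. CCN2 was at 73.9 ± 113 in control, 310.03 ± 300.0 in CDA and 154 ± 118 in CDA_E67Q (SD, n = 5), and it differed between pool numbers (adjusted p = 0.000222 by limma). Its log2 differences were 2.78 (SE 1.45) with CDA and 1.84 (SE 1.45) with CDA_E67Q, and neither was called. Fibronectin (FN1) was at 12.4 ± 9.99, 16.4 ± 3.98 and 21.1 ± 13.4. JUNB was at 4461 ± 3639, 4067 ± 3828 and 3927 ± 3240.2. For the E proteins that ID proteins bind, TCF3 was at 7677 ± 1682, 8292 ± 2056 and 9284 ± 902, with log2 differences of 0.10 (SE 0.215) and 0.30 (SE 0.181). TCF12 was at 1427 ± 299, 1341 ± 246 and 1357 ± 421. Neither passed the test with CDA, with CDA_E67Q or between pool numbers.

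**Figure D5:**
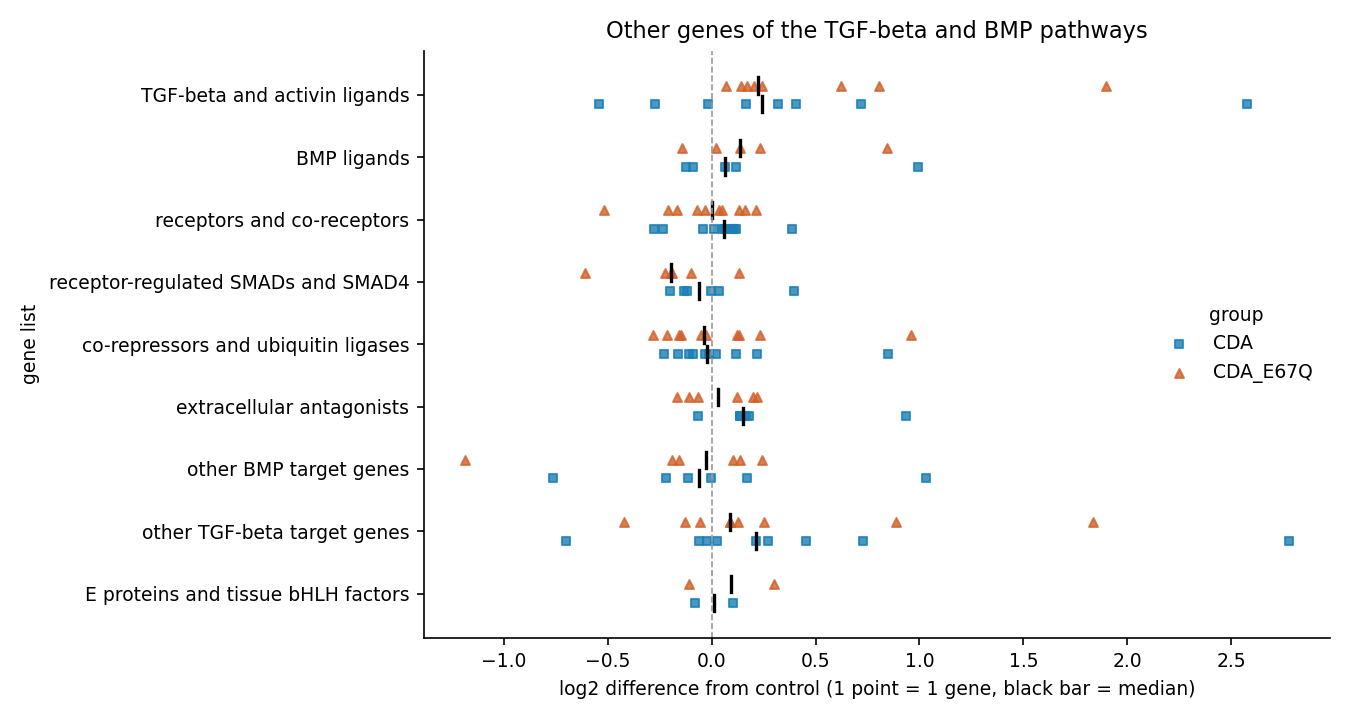
Log2 difference from control of the 62 tested pathway genes in 9 lists, with squares for CDA and triangles for CDA_E67Q, 1 point per gene, and a black bar at each list's median. The highest median was 0.24, for the TGF-beta and activin ligands with CDA, and no gene was called at an adjusted p under 0.05.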

How the data were processed

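Libraries were made from poly-T-selected RNA with an NEBNext Ultra kit, per the labels' protocols. Per the submitters' processing notes, the tools were Salmon, Trimmomatic, FastQC and bcl2fastq and the build was GRCh38, without versions. The authors deposited 2 tables of 16887 genes, each holding the control libraries with 1 overexpressing group, and these deposited values are log2 values. Their form is that of a variance-stabilising transform, with 1 floor for genes without a read. How they were made from Salmon's output is not given in the sources read. The edgeR test was not used, because the values are not counts.

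Values were turned back into normalised counts by inverting that form, and 13917 genes were put on 1 scale through the control libraries that stand in both tables. Tests were run in R 4.3.3 by limma 3.58.1 (trended variance) on log2(normalised count + 1). This pseudocount makes changes of low genes look smaller. Genes at 10 or more in at least 5 libraries were tested, each overexpressing group against control within its own table of 10 libraries. The F test between pool numbers used 15 libraries with group in the fit. The threshold was a Benjamini-Hochberg adjusted p under 0.05 over all genes tested, 2-sided. Exact permutation tests were 2-sided over libraries. Scripts were tested on simulated data. Python 3.11.15, numpy 2.4.6, pandas 2.3.3, scipy 1.17.1 and matplotlib 3.10.9 were used. Positions came from GENCODE on GRCh38, and promoters from RefSeq on GRCh38.p14.

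The members and the gene lists were chosen with earlier results of these data known. Besides the members and CDA, the text names from each pathway list the gene with the highest level and the 2 with the smallest p for CDA against control, and the 3 genes most like each member. Marker genes and the ligands and antagonists listed at 0 were named after their values were seen. Alternatives were the pool number as a block, 1 fit over all libraries, a pseudocount of 10, no filter, upper-quartile or total scaling, the deposited values, and leaving out pool 5 or each library in turn.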

Additional observations from a re-analysis of the deposited data

Results flagged for a closer look

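BAMBI in control pool 1 stood far from the other 4 control libraries. Across all genes this library resembled pool 4 of the other groups, where BAMBI was at 331 with CDA and 409.7 with CDA_E67Q. Whether its number is that of another pool was not tested. The normalised count of BAMBI in control pool 1 was 577, the nearest control library was at 124, and this gap was 0.812 of the group's range. Of 21 groups of 5 libraries examined, which were the 7 detected members in 3 groups, 1 had a library this far out. The gap was taken on normalised counts, not on the log2 scale of the tests, where it was not examined. A rate of about 5% of groups by chance holds only for normally spread values, and that spread was not tested.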

How the results depend on the processing

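Each comparison with control was recomputed under 20 alternatives, 10 of which left out 1 library. By limma the count of called genes stayed at 0 in both comparisons except in 1 fit over all 15 libraries with the replicate block, where 1 gene, CDA itself, was called in each. With the replicate block within each table, 0 genes were called in both comparisons, and 201 (CDA) and 265 (CDA_E67Q) had an unadjusted p under 0.05. For ID2 with CDA this block gave an unadjusted p of 0.0222 and an adjusted p of 1.00 by limma, and it changed no call of a member. Pairing was checked by correlating deviations from group means: 13 of 15 same-number pairs were over 0.1, and 23 of 30 comparisons had their best match at their own number, a hint from the data. The labels do not say that a number marks a shared source. The block without pool 5 and leaving out single libraries in the pool test were chosen after seeing the data.

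Leaving out 1 library at a time, the CDA log2 difference ranged from -0.29 to 0.037 for ID1 (positive without control pool 1 or 2 or CDA pool 5), from -0.64 to 0.099 for SMAD6 (positive without control pool 1 or CDA pool 3), from -0.25 to 0.29 for SKIL and from -0.35 to 0.86 for BAMBI. The sign of ID2, ID3 and SMAD7 held under all 20 alternatives in both comparisons. That of ID1 held with CDA_E67Q only, at -0.37 to -0.04 without 1 library. The alternatives reuse the same libraries, and the CDA_E67Q values chose the members, so a held sign is not separate evidence. ID2 ranged from -0.96 to -0.43 with CDA and from -1.21 to -0.75 with CDA_E67Q. The count of genes that differed between pool numbers was 5217, fell to 185 without pool 5 in every group, and ranged from 3186 to 5938 without 1 library. It was 3275, 3186 and 3404 without pool 5 of control, CDA and CDA_E67Q. ID2 and SMAD7 also missed the threshold between pool numbers with equal library totals (adjusted p = 0.0784 and 0.0533 by limma), and ID2 without the filter (0.0537). The cause of these changes was not tested.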
